A study of Sus scrofa with 67 samples.

Results

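The genes described here were much lower in the pig ovary on day 9 of the oestrous cycle, in the middle of the luteal phase, than on day 0, the onset of oestrous behaviour. In the endometrium and the oviduct they changed by less than 2 times between these days. They were chosen from levels in CPM, which are counts of a gene scaled to a total of 1000000 per library. The mean CPM of each tissue and day was raised by 1, and the day 9 value was divided by the day 0 value. A member has a ratio of at most 0.25 in the ovary and a ratio above 0.5 and under 2 in both other tissues. In all, 265 of the 25322 genes of the table met the rule, out of 532 with an ovary ratio of at most 0.25. Since days 0 and 9 chose the members, all values of those days are descriptions, and tests were made on the 5 other days only.

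The study sequenced RNA of the endometrium, ovary and oviduct of crossbred (Landrace × Yorkshire) gilts, young female pigs 6 to 8 months old that had gone through normal cycles and were not pregnant. Each gilt was sampled once, and sampling took place every 3 days from day 0 to day 18. The table holds 66 libraries, 22 of each tissue, with 2 to 4 per tissue and day. The ovary had 3 libraries on each of days 0, 6, 9 and 18, 2 libraries on day 3, and 4 libraries on each of days 12 and 15. By design 3 gilts were used per day and gave all 3 tissues, and no label ties a library to a gilt, so that 4 libraries of a tissue and day may not stand for 4 animals. Libraries are named by their number in the table, which counts within a tissue and day. Total counts ranged from 8962103 to 13442083 per library, so that 3 counts, taken as the lowest detectable level, stand for 0.223 to 0.335 CPM. The libraries were made from whole pieces of tissue, in which fewer cells of a type and less RNA per cell cannot be told apart.

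Around oestrus the ovary carries large follicles, in which theca cells make androgen, granulosa cells turn it into oestrogen and secrete inhibin, and the oocyte is enclosed. After ovulation the emptied follicles become corpora lutea, whose cells make progesterone through the luteal phase. When no pregnancy follows, the corpora lutea regress, macrophages and other leukocytes are found among their cells, and new follicles grow.

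The labelled tissue was checked against marker genes. The summed level of 4 luteal steroidogenesis markers lay between 9136 and 12052 CPM in the ovary libraries of day 6 and between 9967 and 10919 CPM on day 9, against 716 to 5538 CPM on day 0. None of these 4 markers was a member. The 2 theca markers, CYP17A1 and INSL3, summed to 39.7 to 99.1 CPM in the ovary on day 9 and to 126 to 3296 CPM on day 0. These 2 genes are members, so the rule itself set this fall, and it is no check of the labels. In the endometrium they summed to at most 1.07 CPM in any library, and in the oviduct to at most 20.2 CPM.

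The ovary libraries of 1 day differed strongly from each other. On day 0, the summed level of 15 macrophage markers was 9769, 7615 and 304 CPM in libraries 1, 2 and 3. The sum of 7 granulosa markers had the opposite order on that day, with 979, 6775 and 15515 CPM. All 15 macrophage markers had counts in the ovary on every day, and their sum ranged from 251 to 313 CPM on day 6, from 280 to 4961 CPM on day 15 and from 390 to 9975 CPM on day 18. Library 1 of day 12 also stood apart, with 665 CPM of the luteal markers where the other libraries of that day had 12480 to 17261 CPM. On day 18, library 2 had the highest granulosa sum, at 16112 CPM, and the lowest macrophage sum, and library 3 the reverse for macrophages. The sum of 5 tubal and uterine epithelium markers was 570, 2009 and 832 CPM in ovary libraries 1 to 3 of day 0. It ranged from 15.9 to 98.1 CPM on day 12 and from 54.0 to 2710 CPM on day 15. The sum of 5 smooth muscle markers ranged from 1511 to 18880 CPM on day 15, highest in library 1. The part of these differences in the results below was not tested.

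In the ovary the level of the members was high at oestrus, lowest around day 6 and higher again at the end of the cycle. The median CPM of the 265 members was 31.6, 23.5 and 5.86 in the 3 libraries of day 0. It was between 1.90 and 2.12 on day 6 and between 2.01 and 3.13 on day 9. On day 18 it was 13.39, 4.76 and 25.8. The libraries of day 18 thus all lay above those of day 6, with the lowest of day 18 under the lowest of day 0. The members took 3.12 to 3.85% of all counts of an ovary library on day 0, 0.4999 to 0.594% on day 9 and 1.72 to 2.68% on day 18. In the endometrium the median of the members lay between 2.32 and 8.14 CPM over all libraries, and in the oviduct between 2.26 and 5.31 CPM.

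**Figure D1:**
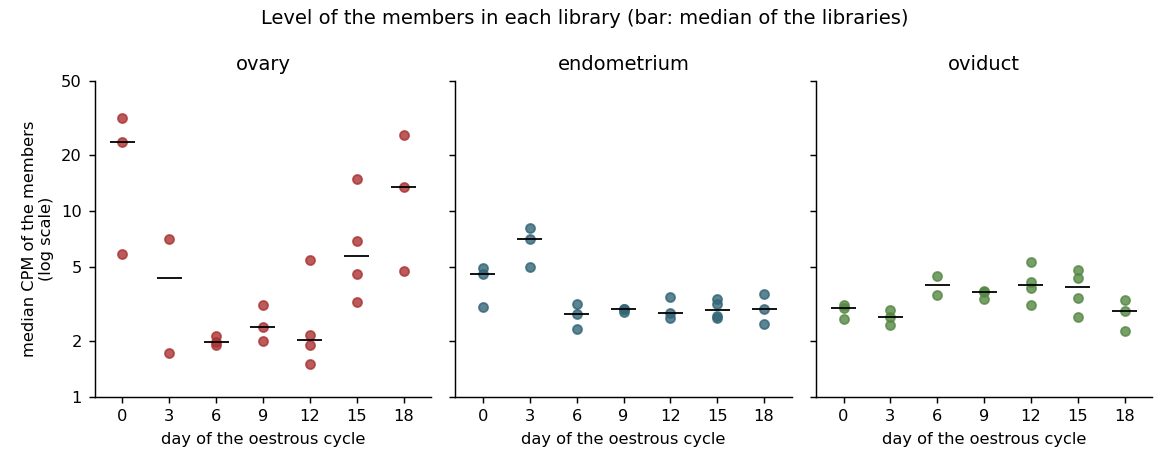
Median CPM of the 265 members in each library, on a log scale, by day of the oestrous cycle in the 3 tissues. Points are libraries and bars are the median of the libraries of a day. The ovary spans 1.51 to 31.6 CPM, and the other tissues stay between 2.26 and 8.14 CPM.

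The ratio of day 9 to day 0 in the ovary had a median of 0.177 over the members, a 5.66-fold lower level. It was lowest for OLR1, at 0.00877, and 42 members had a ratio of at most 0.1. The members just inside the threshold were SLC24A1 (0.248), ARRB2 (0.248) and OTX2 (0.2496), and MAGEB3 was just outside it with 0.2506. The mean day 0 level of the members ranged from 3.31 to 11417 CPM, with a median of 24.6 CPM. Every day 0 library lay above every day 9 library for 151 of the 265 members, which a share of 33.1% of the tested genes of the ovary also showed.

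Relative to day 0, and with 1 added to each mean CPM, the median ratio of the members was 0.236 on day 3 and 0.152 on day 6. It was 0.205 on day 12, before values of 0.375 and 0.675 on days 15 and 18. As early as day 3, 150 of 265 members were at 0.25 or lower. Day 6 was the day of the lowest mean for 162 members, whereas day 9, which the rule used, was lowest for 58. On day 18, 189 members were above 0.5 of their day 0 level and 34 were above it. Since all these ratios share the day 0 libraries with the rule, they carry no test.

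Library 3 of day 0 differed from the other libraries of that day in most members. It had the lowest of the 3 levels for 189 members, the highest for 34 and the middle level for 42. With library 3 alone standing for day 0, 69 of the 265 members had an ovary ratio of at most 0.25 and 62 had a ratio above 1. With library 1 alone 220 members kept such a ratio, and with library 2 alone 200. Without library 3 the rule chose 357 genes, 242 of them among the 265, and without library 1 it chose 185, with 165 of them among the 265. The members are therefore described below in these 3 sets, which rest on day 0 values only. The median level of the 189 genes was 39.8, 25.5 and 3.66 CPM in libraries 1 to 3 of day 0, that of the 42 was 14.8, 3.41 and 9.75 CPM, and that of the 34 was 11.5, 30.8 and 113 CPM.

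**Figure D2:**
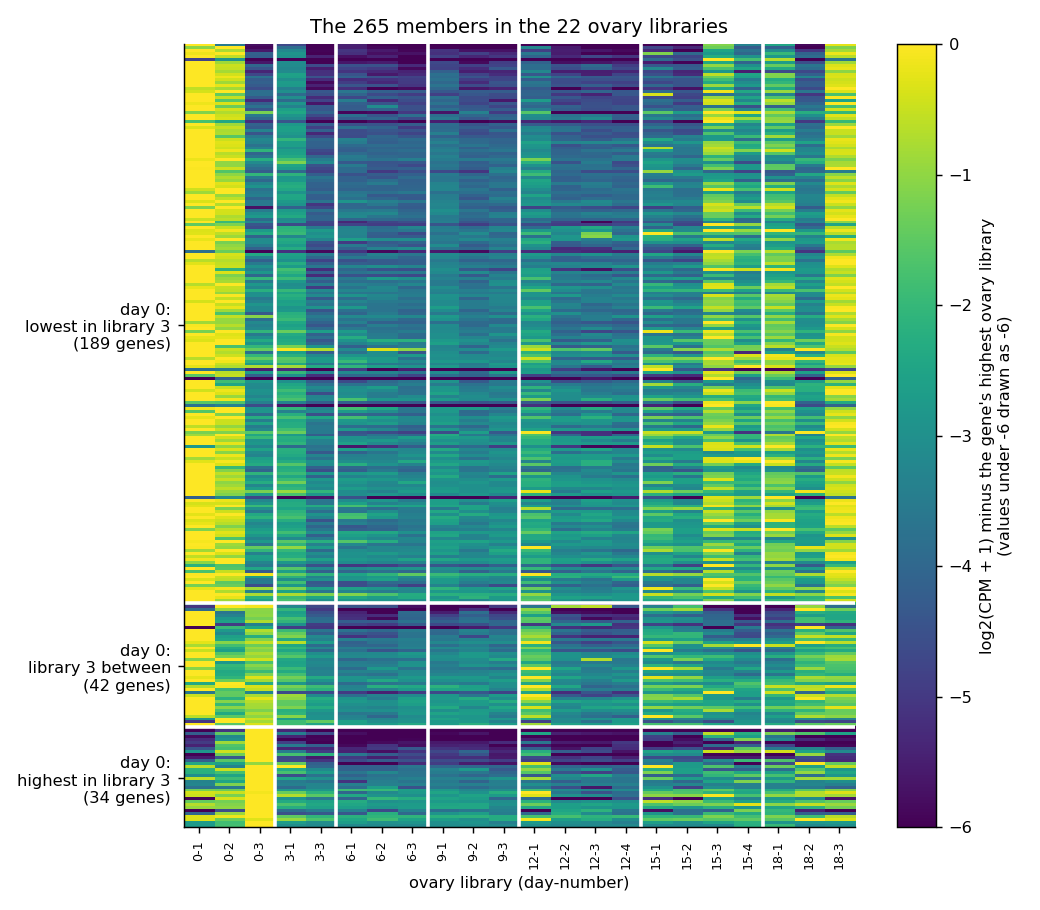
The 265 members (rows) in the 22 ovary libraries (columns, day and library number), as log2(CPM + 1) minus the value of the gene's highest ovary library. Rows are grouped by the place of library 3 among the day 0 libraries and sorted by ratio. The 189 genes of the upper block are bright in libraries 1 and 2 of day 0 and in library 3 of days 15 and 18, and dark in libraries of days 6 and 9.

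Follicular cell genes were among the members with high levels at oestrus. INHA, which encodes the alpha subunit of inhibin, the granulosa hormone that restrains FSH, was at 88.4, 3264 and 8176 CPM in the ovary libraries of day 0. On day 9 it was at 252, 374 and 167 CPM, a ratio of 0.0690. On day 18 the libraries read 30.2, 4297 and 238 CPM. Library 1 was the lowest on both days 0 and 18, and on day 18 the libraries lay on both sides of the 338 to 676 CPM of day 6. The log2 fold change of day 18 against day 6 was 1.16 with a standard error of 1.53 (adjusted p = 0.648), and it turned to -2.26 without library 2 of day 18. The granulosa list held 13 symbols, of which 7 were found in the table, and CYP19A1 was not among those found. INHA was the single member of the 7, and these 7 markers did not move together. From day 0 to day 9 in the ovary, SERPINE2 was the only other one with a ratio of at most 0.25 (0.159). GJA1 had a ratio of 0.375 and FSHR one of 0.581, whereas FST had one of 8.91, NR5A2 one of 4.68 and LHCGR one of 2.91.

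CYP17A1, the enzyme that makes androgen in theca cells, was at 89.2, 2993 and 2766 CPM on day 0 and at 36.2, 49.2 and 92.0 CPM on day 9. Its ratio was 0.0308. Levels of day 12 were 239, 1691, 1988 and 148 CPM, and those of day 18 were 19.6, 1528 and 210 CPM. The gene was therefore high in 2 libraries of day 12, in which INHA was at 121 and 79.3 CPM. The change of day 18 against day 6 did not pass the test (log2 fold change 1.95, standard error 1.57, adjusted p = 0.429), and it was -0.33 without library 2 of day 18.

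INSL3, the peptide hormone made by theca cells, read 36.3, 302 and 281 CPM on day 0. It was down to 0.895, 1.66 and 1.97 CPM on day 6 and stood at 3.46, 15.1 and 7.13 CPM on day 9. On day 18 it was at 12.6, 579 and 235 CPM, above all libraries of day 6. The log2 fold change was 7.04 with a standard error of 2.80, and the adjusted p was 0.121. On day 12, library 1 had 285 CPM and the 3 others 0.172 to 0.941 CPM, at 2 of them under the level of 3 counts. In the endometrium INSL3 had no count on the 5 days outside the rule.

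**Figure D3:**
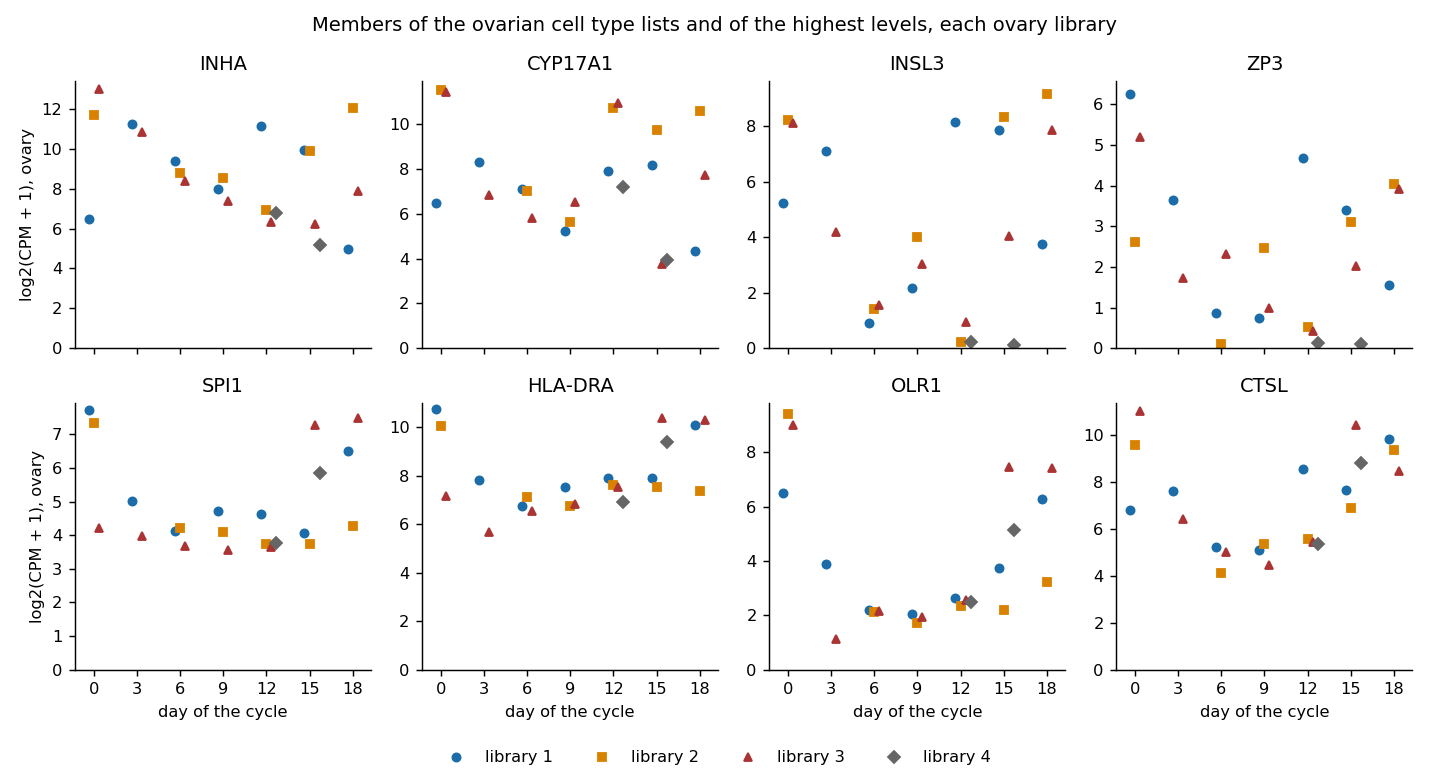
Levels of 8 members as log2(CPM + 1) in each ovary library by day, with the library number given by colour and shape. INHA, CYP17A1 and INSL3 are low in library 1 of days 0 and 18, whereas SPI1 and HLA-DRA are high there and low in library 3 of day 0. CTSL on day 18 lies above all its libraries of days 6 and 9.

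Oocyte genes formed another set with low levels in the luteal phase. Of the 10 oocyte markers found in the table, 5 had an ovary ratio of at most 0.25, and 3 of these were members: ZP3, a protein of the zona pellucida around the egg, ZAR1, a maternal factor needed by the early embryo, and BMP15, a growth factor that the oocyte sends to granulosa cells. The other 2 had a ratio of at most 0.5 in the oviduct as well. ZP3 was at 75.7, 5.14 and 35.8 CPM on day 0 and at 0.660, 4.48 and 0.968 CPM on day 9. On day 18 it read 1.93, 15.5 and 14.0 CPM against 0.814, 0.0792 and 4.02 CPM on day 6, so that the groups overlapped (log2 fold change 2.26, standard error 1.68, adjusted p = 0.389).

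ZAR1 read 19.1, 2.48 and 11.3 CPM on day 0 and 0.165 to 0.540 CPM on day 9. BMP15 read 10.22, 1.51 and 8.42 CPM on day 0 and 0.352 to 1.31 CPM on day 9. All 3 oocyte members had the lowest day 0 level in library 2, and each had its highest day 12 level in library 1. Their changes of day 18 against day 6 did not pass the test, with adjusted p values of 0.210 for ZAR1 and 0.256 for BMP15. Other members known from oocytes, picked after their values were seen, had the same order on day 0. PADI6, a protein of the cytoplasmic lattices of the egg, read 57.5, 7.27 and 23.6 CPM, and MOS, the kinase that holds eggs in meiotic arrest, 15.4, 2.31 and 6.31 CPM. On day 9 PADI6 was at 1.496 to 3.09 CPM and MOS at 0.742 to 1.14 CPM.

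The members on the macrophage and the T and NK cell lists were all lowest in library 3 of day 0. SPI1, the transcription factor PU.1 that specifies myeloid cells, was at 211, 161 and 17.7 CPM on day 0 and at 25.5, 16.2 and 10.8 CPM on day 9. On day 18 it read 89.7, 18.5 and 177 CPM, above the 11.8 to 17.6 CPM of day 6 in all 3 libraries. The log2 fold change was 2.28 with a standard error of 0.90 (adjusted p = 0.117). ITGAM, the alpha chain of the complement receptor of myeloid cells, was at 85.6, 21.7 and 7.87 CPM on day 0 and at 7.17, 3.09 and 4.13 CPM on day 9. The T and NK cell gene CD2, an adhesion receptor, read 27.2, 21.4 and 4.67 CPM on day 0 and 2.11 to 4.21 CPM on day 9. The level in library 3 of day 0 was within the day 9 range for SPI1 and just above it for ITGAM and CD2.

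SPI1 and ITGAM were the only members among the 15 macrophage markers of the table. Outside the ovary they were not far inside the rule, with day 9 to day 0 ratios of 0.584 for SPI1 and 0.587 for ITGAM in the endometrium. In the oviduct the ratios were 1.97 for SPI1 and 1.24 for ITGAM. In all, 11 of the 15 had an ovary ratio of at most 0.25, and the 9 that were no members had a ratio of at most 0.5 in the endometrium too. Of the 7 T and NK cell markers, 2 had such an ovary ratio and CD2 was the member. The sum of the macrophage markers is dominated by lysozyme (LYZ), whose mean was 3685 CPM in the ovary on day 0.

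HLA-DRA, the class II antigen presentation chain listed under its human symbol, read 1724, 1062 and 141 CPM on day 0, 182, 107 and 113 CPM on day 9, and 1086, 163 and 1236 CPM on day 18. Its level in library 3 of day 0 was within the range of day 9. LCP1, an actin bundling protein of leukocytes, read 488, 431 and 29.1 CPM on day 0 and 274, 32.3 and 542 CPM on day 18. HK3, the hexokinase of myeloid cells, had 545, 391 and 33.1 CPM on day 0 and 205, 42.7 and 438 CPM on day 18. IL2RG, the common chain of several cytokine receptors, showed the same pattern at lower levels, with 83.4, 69.2 and 7.69 CPM on day 0. LCP1, HK3 and IL2RG were picked after their values were seen. None of these 4 genes passed the test of day 18 against day 6, with adjusted p values between 0.0636 for IL2RG and 0.0931 for LCP1.

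OLR1, a scavenger receptor for oxidized lipoprotein, had the lowest ratio of all members. It read 89.2, 677 and 516 CPM on day 0, 3.41 to 3.58 CPM on day 6 and 2.32 to 3.13 CPM on day 9. On day 15 the libraries read 12.4, 3.62, 173 and 34.1 CPM, and on day 18 75.7, 8.31 and 168 CPM. The log2 fold change of day 18 against day 6 was 4.24 with a standard error of 1.34 (adjusted p = 0.0682). Unlike the leukocyte genes above, OLR1 was lowest in library 1 of day 0. Over the 16 ovary libraries of the days outside the rule, its Pearson's r with SPI1 on the log2(CPM + 1) scale was 0.956. That of HK3 was 0.963 and that of IL2RG 0.951, so the contrast holds for day 0 only.

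CTSL, the lysosomal protease cathepsin L, was the single member among the 8 genes found of the list of lysosome and lipid handling. It read 111, 750 and 2071 CPM on day 0, 33.6, 40.1 and 20.8 CPM on day 9 and 888, 657 and 352 CPM on day 18. All libraries of day 18 lay above the 16.3 to 36.8 CPM of day 6, and CTSL rose by 4.19 on the log2 scale (standard error 1.03, adjusted p = 0.0405). RETREG1, a receptor for the turnover of the endoplasmic reticulum, read 98.4, 617 and 2097 CPM on day 0 and 42.2 to 59.8 CPM on day 9. It stayed at 115 to 217 CPM on day 18.

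GCG, SCG2 and PTPRN were all highest in library 3 of day 0. GCG, which encodes proglucagon, read 0.557, 7.71 and 294 CPM on day 0, so that its ratio of 0.0259 rested on library 3. SCG2, a secretory granule protein, read 0.557, 8.60 and 87.1 CPM on day 0 and at most 0.309 CPM on day 9. PTPRN, another protein of secretory granules, was at 15.1, 277 and 498 CPM on day 0 and at 9.32, 9.26 and 12.1 CPM on day 9, and it stayed at 2.04 to 6.70 CPM on day 18. PTPRN was picked after its values were seen. Its change of day 18 against day 6 was -0.74 on the log2 scale and did not pass the test (adjusted p = 0.5004).

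Among the members without a symbol, ENSSSCG00000029414 read 188, 15.8 and 2.47 CPM on day 0 and 0.330 to 1.14 CPM on day 9. ENSSSCG00000016896 had the opposite order, with 0.929, 67.7 and 163 CPM on day 0 and at most 1.31 CPM on day 9. The highest CPM on day 0 belonged to ENSSSCG00000014540, singled out after its values were seen, with 10169, 11412 and 12671 CPM. It was at 2555 to 2857 CPM on day 9, and its 3 libraries of day 0 differed less than those of any other member named.

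A few members went above their day 0 level late in the cycle. On day 15 and on day 18, 7 members each had more than 2 times their day 0 value. Those with a symbol were the same on both days: TNC, UNC45B, S100A8, CCN2 and HAS2. TNC, a matrix glycoprotein of tissue remodelling, read 51.1, 188 and 16.9 CPM on day 0 and 93.6, 61.0, 1424 and 409 CPM on day 15. HAS2, which makes hyaluronan, read 9.47, 18.2 and 5.77 CPM on day 0 and 6.60, 1.43, 143 and 97.4 CPM on day 15. S100A8, a calcium binding protein of neutrophils, read 1.76, 15.9 and 0.275 CPM on day 0 and 3.88, 1.999, 290 and 16.6 CPM on day 15. Libraries 3 and 4 of day 15 held the high values of all these genes. CCN2, a matrix-associated growth factor regulator, was high in all 4 libraries of day 15, at 2289, 1032, 2760 and 2539 CPM, against 489, 1653 and 349 CPM on day 0. UNC45B, HAS2 and S100A8 were picked after their values were seen.

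Day 18 was compared with day 6, both outside the rule. This pair was chosen with earlier results of these data known, and on the means of the 5 remaining days 203 of the 265 members were lowest on day 6 and 208 highest on day 18. The direction of the members and the counts of this comparison go with that choice, also where tissues are compared, and are no independent support for a rise. All 5 days were fitted in 1 model of the ovary. Of 263 members tested, 18 rose and 0 fell (edgeR's quasi-likelihood test, adjusted p under 0.05), where 2.06% of all 15409 genes tested were called higher and 3.64% lower. The median log2 fold change of the members was 2.57, against 0.09 over all genes, and 251 members were above 0. At an unadjusted p under 0.05, 184 members passed, where 28.7% of all genes tested did. For 171 of the 265 members every library of day 18 was above every library of day 6, which held for 27.8% of all genes tested. The other genes with an ovary ratio of at most 0.25 had a median of 2.66, with 29 of 266 higher and 1 lower. These calls were lost without 1 library: 0 members were called without library 1 or library 3 of day 18 or without any 1 library of day 6, and 20 without library 2 of day 18. The other alternatives gave between 5 and 157 called members, all of them higher. For these alternatives and the fits without 1 library, the share of all genes called is not given here. Their counts therefore cannot be read as particular to the members.

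The 5 called members with the largest rise were ENSSSCG00000030168, TRPM2, KYNU, CTSL and BCL2L14. ENSSSCG00000030168 read 1.55, 1.74 and 2.27 CPM on day 6 and 14.1, 429 and 24.7 CPM on day 18 (log2 fold change 5.91, standard error 1.35, adjusted p = 0.0353). TRPM2, a cation channel of leukocytes, read 0.895, 1.35 and 0.455 CPM on day 6 and 13.8, 6.07 and 63.5 CPM on day 18. It rose by 4.54 on the log2 scale (standard error 1.11, adjusted p = 0.0402). KYNU, an enzyme of tryptophan breakdown, went from 0.713 to 0.834 CPM on day 6 to 20.2, 3.08 and 31.8 CPM on day 18, and BCL2L14, of the BCL2 family, from 0.152 to 0.407 CPM to 5.43, 1.49 and 11.8 CPM. In TRPM2, KYNU and BCL2L14 library 2 of day 18 was the lowest of the 3, and in ENSSSCG00000030168 it was by far the highest.

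CCN2, MEST and CD72 were also called, of which the last 2 were named after their values were seen. CCN2 rose by 3.66 on the log2 scale (standard error 0.81, adjusted p = 0.0352), from 68.5, 93.3 and 179 CPM on day 6 to 3376, 766 and 901 CPM on day 18. MEST, an imprinted gene of the hydrolase family, was at 2.30 to 4.09 CPM on day 6 and 134, 30.2 and 19.5 CPM on day 18, and CD72, a B cell surface protein, at 0.0814 to 0.682 CPM and 4.24, 2.80 and 13.6 CPM. Their log2 fold changes were 4.05 and 3.75. TNC, with 895, 13.8 and 112 CPM on day 18 against 3.79 to 10.7 CPM on day 6, just missed the threshold (log2 fold change 5.50, standard error 1.52, adjusted p = 0.0504).

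The 4 steps between neighbouring days of the 5 gave no call, among the members or among all genes of the ovary (0% called). The median log2 fold change of the members was -0.70 on day 6 against day 3, 0.43 on day 12 against day 6, 1.10 on day 15 against day 12 and 0.81 on day 18 against day 15. At an unadjusted p under 0.05, 5, 11, 76 and 21 of the 263 members passed in these 4 steps. Of all genes tested, 4.99, 6.31, 18.4 and 4.47% did. Day 15 against day 12 was the step with the most, and all 76 were higher, where 18.4% of all genes passed. Without library 1 of day 12 this step gave 34 called members. With DESeq2's Wald test it gave 36. For neither count is the share of all genes called given here.

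In the 3 sets by day 0 level, the change of day 18 against day 6 had medians of 2.65 for the 189 genes lowest in library 3, 2.64 for the 42 genes between and 1.16 for the 34 genes highest there. They held 13, 2 and 3 of the called genes. The mean of day 18 stood at a median of 0.720, 0.438 and 0.348 of the day 0 level in these sets. The differences between the sets were not tested, since the sets were made from values of the same genes.

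The 16 ovary libraries of the 5 days outside the rule were used to describe which members varied together, on the log2(CPM + 1) scale. SPI1, ZP3 and INHA were taken as 1 gene each of the macrophage, oocyte and granulosa lists. The 7 granulosa markers found in the table did not move together, so INHA does not stand for granulosa cells here. A Pearson's r above 0.8 with SPI1 was found for 129 members, or 49.6%, and for 4.39% of all genes tested. With ZP3 it was found for 37 members, or 14.2%, against 14.9% of all genes, and with INHA for 0 members against 5.30%. The median r with SPI1 was 0.79 over the members and 0.09 over all genes. These points share libraries and days, and the correlation carries no test. By Spearman's rho 54 members were above 0.8 with SPI1, where 2.06% of all genes tested were. By Pearson's r without library 3 of days 15 and 18, the 2 libraries farthest from the median of SPI1, 96 members were, against 4.37%. With ZP3 the same 2 checks gave 35 and 30 members, against 9.94 and 7.85% of all genes. With INHA they gave 0 and 0, against 5.54 and 3.89%. The 2 libraries left out were those farthest from the median of each gene.

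The day 0 sets differed in this measure, which used no day 0 library. SPI1 itself belonged to the set lowest in library 3, ZP3 to the set between and INHA to the set highest there. The 3 genes thus differed on day 0 in the way that made the sets, and the values are a description only. Of 188 genes lowest in library 3 of day 0, 127 had an r above 0.8 with SPI1, and the median was 0.88. Of the 40 genes with library 3 between, 26 had an r above 0.8 with ZP3 (median 0.87) and 1 with SPI1. The 32 genes highest in library 3 had median values of 0.44 with SPI1, 0.31 with ZP3 and 4.3e-05 with INHA, and 0 of them were above 0.8 with INHA. SPI1 and INHA themselves had an r of -0.40, and no member was above 0.8 with both SPI1 and ZP3.

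**Figure D4:**
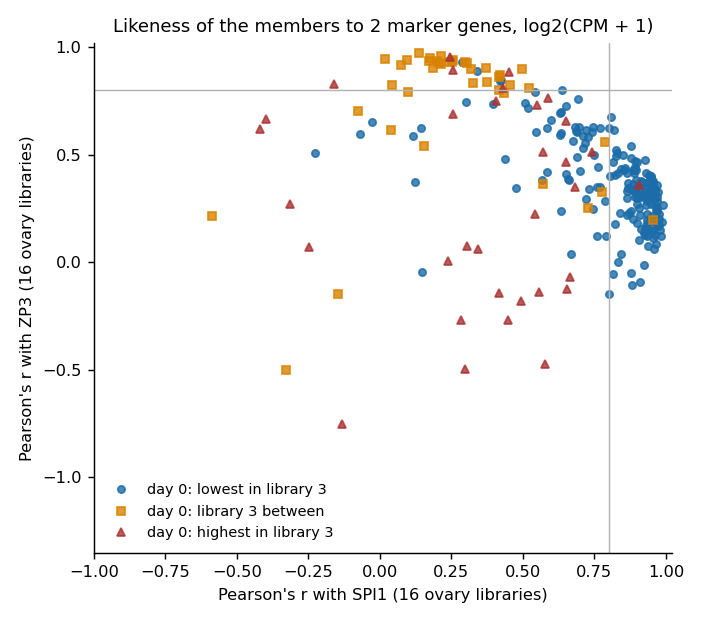
Pearson's r of each member with SPI1 (x axis) and with ZP3 (y axis) over 16 ovary libraries of days 3, 6, 12, 15 and 18, with colours and shapes for the 3 day 0 sets. Lines mark 0.8. The genes lowest in library 3 of day 0 lie mostly at the right, and those with library 3 between mostly at the top.

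In the other tissues most members were detected. Over the 5 days outside the rule, 176 members had a mean of 1 CPM or more in both endometrium and oviduct, and 72 had 10 CPM or more in both. The ovary had the highest mean of the 3 tissues for 175 members and the lowest for 52. Under 1 CPM in both other tissues were 63 members. For these the added 1 CPM pulls the ratio of the rule towards 1, although INSL3 among them had a ratio of 0.586 in the oviduct. By day 0 set the 63 were 31 of the 189, 21 of the 42 and 11 of the 34 genes. INHA had a mean of 0.106 CPM in the endometrium and 5.38 CPM in the oviduct, SPI1 had 16.4 and 10.6 CPM, and CTSL had 5.92 and 5.75 CPM. INHA, INSL3, ZP3, ZAR1 and BMP15 were thus under the level of 3 counts in the endometrium, where ITGAM had a mean of 5.70 CPM and CD2 one of 9.69 CPM.

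Of the 188 members with a mean of 1 CPM or more in the endometrium, 155 (82.4%) changed by less than 2 times from day 6 to day 18, as did 79.6% of all genes at such a level. In the oviduct it was 149 of 190 members (78.4%) and 83.2% of all genes. These shares, chosen after seeing the data and taken with nothing added to the means, lay near those of all genes. Of 216 members tested in the endometrium, 9 rose and 19 fell, where 9.05% of all genes tested were called higher and 8.80% lower. TRPM2 fell by 1.77 on the log2 scale (standard error 0.47, adjusted p = 0.0195), CD72 fell by 1.403 (standard error 0.39, adjusted p = 0.0240) and HK3 fell by 0.94 (standard error 0.30, adjusted p = 0.0425). TLR8, a receptor for single-stranded RNA, was also called lower, with a mean of 0.56 CPM on day 6 and one of 0.06 CPM on day 18, under the level of 3 counts. CCN2 rose by 1.80 (standard error 0.51, adjusted p = 0.0273) and S100A8 was called higher, with no count on day 6 and a mean of 2.15 CPM on day 18. TLR8 was picked after its values were seen. ENSSSCG00000014540 rose by 1.61 (standard error 0.31, adjusted p = 0.00423). In the oviduct, 0 of 220 members were called, as were 0% of all genes. At an unadjusted p under 0.05, 30 of these members passed, where 23.2% of all genes tested did.

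Whether the change differed between tissues was tested on the difference of the log2 fold changes in 1 model of all 3 tissues. The ovary exceeded the endometrium for 105 of 263 members and was below it for 1, against 6.78% and 5.65% of all 16803 genes tested. It exceeded the oviduct for 118 members and was below it for 0, against 9.12% and 9.21%. The median difference was 2.57 to the endometrium and 2.72 to the oviduct, with 0.09 and 0.20 over all genes. Of the 267 other genes with an ovary ratio of at most 0.25, 73 were higher and 9 lower against the endometrium (median 2.08). Against the oviduct 117 of them were higher and 3 lower (median 2.67), so that this difference was not particular to the members. The model gives each gene 1 spread for all tissues, whereas the libraries of day 18 differed more in the ovary. The standard deviation of the members' mean log2(CPM + 1) was 0.81 there, against 0.17 in the endometrium and 0.07 in the oviduct. The tissues of a day came from the same gilts, which the model does not use. With libraries of the same number and day taken as a block, an alternative chosen after seeing the data, 89 members differed from the endometrium and 81 from the oviduct. Without library 3 of ovary day 18, 40 and 44 members were called. The share of all genes called with the block or without this library is not given here.

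TRPM2 had a difference of 6.34 to the endometrium (standard error 1.07, adjusted p = 0.000255) and of 5.51 to the oviduct (standard error 1.09, adjusted p = 0.00125). KYNU had 4.82 and 5.06, and CTSL had 5.09 and 4.71. ITGAM differed by 3.90 and 3.39, HLA-DRA by 2.42 and 2.33, and CD2 by 2.42 and 2.22. SPI1 passed against the oviduct (2.56, standard error 0.91, adjusted p = 0.0448) and not against the endometrium (2.19, standard error 0.87, adjusted p = 0.0887). With the block within a day, SPI1 did not pass against the oviduct (adjusted p = 0.126), nor did HLA-DRA against the endometrium (adjusted p = 0.0886) or the oviduct (adjusted p = 0.110). CCN2 passed against neither tissue, with a difference of 1.85 to the endometrium (adjusted p = 0.268). The member called lower was ENSSSCG00000014085, which had no count in the endometrium on day 6 and 6, 3 and 6 counts on day 18, and in the ovary at most 0.303 CPM on either day, so that no fold is given. It was singled out after its values were seen.

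**Figure D5:**
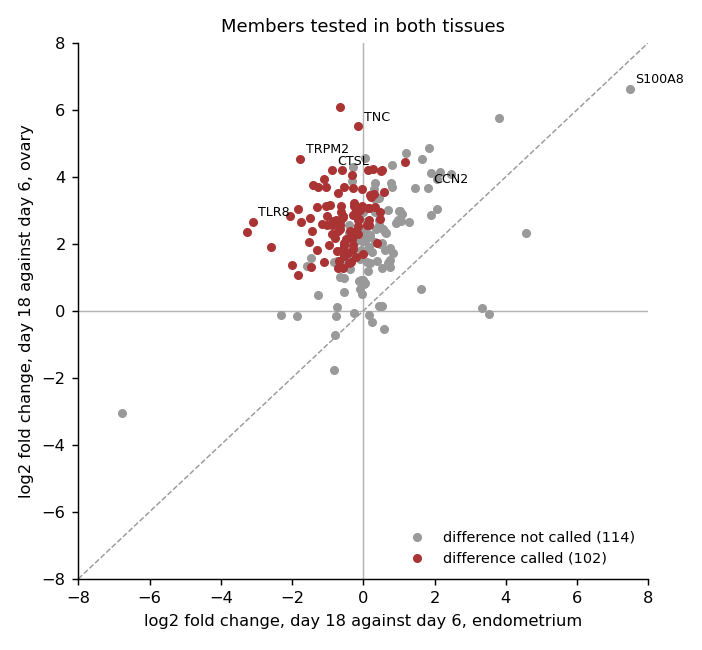
Log2 fold change of day 18 against day 6 in the endometrium (x axis) and the ovary (y axis) for the 216 members tested in both tissues, each from the model of its own tissue. Red points are the 102 whose difference passed the test in the model of all tissues, and the dashed line marks equal change. Most points, 205, lie above the line.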

How the data were processed

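Per the labels, the libraries were made with a TruSeq stranded mRNA kit from total RNA. The authors cut 13 bases from the start of every read, aligned the rest with tophat2 v2.0.13 to the pig genome (Sus scrofa build 10.2) and the Ensembl v78 transcriptome, and deposited raw counts as whole numbers, 1 per Ensembl gene and column. The submitters' processing notes also name FastQC, featureCounts, Cufflinks, Cuffdiff and edgeR. The strand setting of the counting is not given in the sources used here, so reads of overlapping and antisense genes may not be separated. No pooled column was used. The labels list 67 samples, and 1 sample of the endometrium on day 12 is not analysed here. Columns were assigned to a tissue and day by name.

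Symbols were matched for 11804 of 25322 identifiers and for 172 of 265 members. The reference table held no sequences, and none are printed. Pairs of libraries of the same group were compared: 0 of 74 held identical values, and chi-squared over its degrees of freedom was 9.10 or more, where counting noise gives about 1. No label ties a library to a gilt, so p-values measure only the spread between these libraries. CPM used the column totals, with no correction for gene length. In the ovary the log2 TMM scale factor of day 9 minus that of day 0 was -0.28, which raises the level of day 9 against day 0. The median ovary ratio of the members was 0.197 on the TMM scale, against 0.177 by column totals. For day 18 minus day 6 the factor differed by 0.33, which lowers the level of day 18 against day 6.

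Tests used edgeR 4.0.16 in R 4.3.3 on the deposited counts, with TMM, filterByExpr, robust glmQLFit and glmQLFTest, Benjamini-Hochberg adjustment over all genes tested and a threshold of 0.05. Libraries of days 3, 6, 12, 15 and 18 entered. Standard errors were taken from the log2 fold change and the F statistic. The steps were tested on simulated counts of 15409 genes for day 18 against day 6 in the ovary. There they recovered 48 of 100 genes changed 4-fold and 72 of 100 changed 16-fold, with 7 false calls. Each gene was drawn on its own around its mean in the tissue, without differences that many genes of a library share. The real ovary libraries of a day did differ in that way, so these numbers may not hold for them. The floor of 3 counts covers counting error only, since the reads carry no molecular identifiers, whereas the standard errors reflect the spread between libraries. The alternatives were other scaling, no filter, DESeq2 1.42.0, other sets of libraries, the replicate number as a block, other forms of the rule and each library left out. Figures and summaries were made with matplotlib 3.10.9, pandas 2.3.3 and numpy 2.4.6 in Python 3.11.15.

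The members, the gene lists and the tests were chosen with earlier results of these data known. Genes were named if they were on a list of cell type markers or gene groups, were among the 10 with the highest CPM in the ovary on day 0, the 10 with the lowest ratio or, of the called genes whose groups did not overlap and whose higher group held 10 or more counts in every library, the 5 that rose and 5 that fell most between days 6 and 18. All 18 called genes qualified as rising and 0 as falling. Of genes without a symbol, at most 4 were to be named by this rule. Other names are marked as picked after their values were seen.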

Additional observations from a re-analysis of the deposited data

Results flagged for a closer look

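In groups of 4 or 5 libraries, a library was marked when its gap to the next one was above Dixon's 95% critical value, which chance reaches in about 1 of 20 groups. Of 77 groups of values examined, 10 were marked, and each of them was library 1 of ovary day 12 on the high side. The mean log2(CPM + 1) of the members was 3.21 there. The marked levels were 371 CPM of CTSL, 285 CPM of INSL3, 2284 CPM of INHA, 24.7 CPM of ZP3, 5.75 CPM of ZAR1, 7.89 CPM of BMP15, 24.0 CPM of SPI1, 67.6 CPM of VSTM2A, a transmembrane protein gene picked after its values were seen, and 100.7 CPM of ENSSSCG00000030168. The same library had 665 CPM of the luteal steroidogenesis markers and 8295 CPM of the granulosa markers, where the others of that day had at least 12480 and at most 1802 CPM.

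The change of day 18 against day 6 differed between the ovary and another tissue by the test of the difference for 106 members against the endometrium and 118 against the oviduct. Against the endometrium, the log2 differences of the named members were 5.09 for CTSL, 5.66 for TNC, 3.90 for ITGAM, 2.42 for CD2, 2.42 for HLA-DRA, 3.99 for OLR1, 6.34 for TRPM2, 4.82 for KYNU and 3.69 for BCL2L14. The members picked after their values were seen differed by 5.17 for CD72, 3.50 for LCP1, 5.78 for TLR8, 2.50 for IL2RG, 4.13 for HK3 and 4.36 for MEST. PADI6 differed by 8.39, where its endometrium libraries had 8, 6 and 6 counts on day 6 and 0 on day 18, so that the value depends on the prior count, as does that of TLR8, whose mean in the endometrium was 0.06 CPM on day 18.

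Against the oviduct, the differences were 4.71 for CTSL, 5.45 for TNC, 5.94 for INHA, 2.56 for SPI1, 3.39 for ITGAM, 2.22 for CD2, 2.33 for HLA-DRA, 5.51 for TRPM2, 5.06 for KYNU and 4.77 for BCL2L14. They were 3.69 for CD72, 3.52 for LCP1, 2.56 for IL2RG, 3.95 for HK3 and 4.10 for MEST. That of INHA goes with a fall of its oviduct mean from 15.3 CPM on day 6 to 0.47 CPM on day 18, and its change in the ovary did not pass the test. Library 3 of ovary day 18, which held the highest macrophage sum of that day, took the counts of called members to 40 and 44 when it was left out.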

How the results depend on the processing

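The count of 18 members called on day 18 against day 6 in the ovary was 20 with DESeq2's size factors in edgeR, 7 without a filter on low counts, 157 with DESeq2's Wald test (17 of the 18 among them), 53 with all 7 days in 1 model and 48 with the 2 groups alone. The share of all genes called under these settings and those below is not given here. The counts therefore describe the settings and cannot be read as particular to the members. Of the other ovary steps, DESeq2 gave 36 on day 15 against day 12, and the 2 groups alone gave 1 on day 6 against day 3. In the oviduct, DESeq2 gave 9 and all 7 days in 1 model gave 4. The number of members was 478 with 0.1 in place of 1 added to the mean CPM (167 of the 265 among them), 147 with 5 added and 169 with a ratio of at most 0.2. It was 231 on the TMM scale, with 197 among the 265. The cause of these shifts was not tested.

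With each library left out in turn, the calls ranged from 0 to 20 for day 18 against day 6 in the ovary, from 0 to 34 for day 15 against day 12, from 0 to 0 for each of the other ovary steps, from 10 to 22 in the endometrium and from 0 to 5 in the oviduct. In the endometrium, where 28 were called with all libraries, 10 and 11 were called without library 1 or 2 of day 6, and 10, 12 and 16 without library 1, 2 or 3 of day 18. In the oviduct 5 were called without library 1 of day 18. They ranged from 40 to 128 for the difference to the endometrium and from 44 to 140 for that to the oviduct. The former was 40 without library 3 of ovary day 18, 58 without library 1 of endometrium day 18 and 68 without library 3 of ovary day 6. The latter was 44 without library 3 of ovary day 18, and 52 and 63 without library 2 or 3 of oviduct day 6. The number of members ranged from 185 to 357. Direction turned for 4 named genes on day 18 against day 6 in the ovary. The log2 fold change ranged from -0.33 to 2.50 for CYP17A1 and from -2.26 to 1.71 for INHA, both lowest without library 2 of day 18. It ranged from -3.07 to 1.16 for GCG and from -1.02 to 3.64 for SCG2, both lowest without library 1 of day 18. At these depths, members near 0.3 CPM cannot be told from absent ones.

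The replicate numbers of the table did not pair libraries of different days: over days 18 and 6 the 8 correlations of deviations were between -0.138 and 0.080. Across tissues within a day, 30 of 45 were over 0.1, with a median of 0.119 and a range from -0.138 to 0.317, so that same-numbered libraries went together in part. Whether they came from the same gilt is not known. With the replicate block, 5 members were called on day 18 against day 6 in the ovary, 4 of them among the 18. With a block within each day, chosen after seeing the data, 89 members differed from the endometrium and 81 from the oviduct, and the calls of OLR1 and LCP1 to the endometrium and of LCP1 and IL2RG to the oviduct were lost (adjusted p = 0.0795, 0.0684, 0.0663 and 0.0601), beside those of SPI1 and HLA-DRA.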
